A study of Mus musculus with 39 samples.

Results

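The genes followed here were 10 parts of the circadian clock and its output: *Arntl*, *Npas2*, *Nr1d1*, *Nr1d2*, *Dbp*, *Per1*, *Per2*, *Per3*, *Bhlhe40* and *Wee1*. They were taken by symbol from the 45706 genes that the count files list for every library, with no threshold on their values, and each symbol matched 1 gene identifier. They were read in 39 poly(A) RNA-seq libraries of 12 groups, from a study of how glucocorticoids act in mice without E47, a transcription factor made from *Tcf3* (E2A) by alternative splicing. All mice were adult males of C57BL/6 background on chow. Global mutants (E47-/-, here E47KO) and E47+/+ controls (WT) gave liver after 3 weeks of dexamethasone (Dex), a synthetic glucocorticoid, at 10 µg/ml in the drinking water (3 E47KO, 2 WT), and under the same treatment quadriceps muscle (3 E47KO, 2 WT) and epididymal white adipose tissue (WAT; 2 E47KO, 2 WT). Further livers came after 3 weeks of corticosterone (Cort), the natural glucocorticoid of mice, at 100 µg/ml (4 E47KO, 4 WT) and from untreated mice (6 E47KO, 5 WT). The last experiment used liver taken 1 h after a Dex injection of 1 mg/kg. It compared 3 Albcre/+;E47fl/fl mice (E47LKO), whose Cre is driven by the albumin promoter and so deletes E47 in hepatocytes, with 3 Alb+/+ mice without Cre (floxed), of which 2 were E47fl/fl and 1 was E47fl/+. Mice on 3 weeks of Dex or Cort were killed after a glucose tolerance test, which the study ran after an overnight fast. The hour of the day at which these tissues were taken is not given in the sources used here.

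Libraries held 15.5 to 54.6 megareads (M) counted in genes, with the fewest in the 1 h livers (15.5 to 18.1 M) and the livers on 3 weeks of Dex (17.5 to 21.4 M). Levels are given as CPM, read counts scaled to library size and TMM factors over all 39 libraries. The tissue labels held for the markers of each tissue. A list of 8 hepatocyte genes summed to 80413 to 166161 CPM in the 30 livers, against at most 203 in muscle and 71.9 in WAT. The genotype could not be checked on *Tcf3*, since reads over the whole gene also come from its other product: its level in untreated liver was 12.5 CPM in E47KO and 13.9 in WT (log2 difference -0.15 ± 0.12 SE, edgeR adjusted p = 0.965). B cells need E47 to form, and the summed level of 6 B cell markers was 0.589 to 1.03 CPM in the 6 untreated E47KO livers and 2.32 to 5.08 in the 5 WT livers. In the other global-mutant livers this sum did not separate the genotypes: on Cort it was 0.596 to 0.819 CPM in E47KO and 0.690 to 1.05 in WT, and on 3 weeks of Dex 0.712, 0.907 and 0.289 CPM in E47KO and 1.30 and 0.128 in WT. The Cort livers came from separate sets of neighbouring animal numbers, read from the library names, and these sets stood apart. In the 3 livers of set 1 (WT 1, E47KO 1 and 2) the glucocorticoid receptor target *Fkbp5* lay at 56.3 to 78.7 CPM and 8 skeletal muscle markers summed to 0.729 to 1.01 CPM. In the 5 livers of set 2 *Fkbp5* was at 288 CPM or more and the markers at 144 to 197 CPM. In untreated livers *Fkbp5* lay at 19.6 to 119 CPM, a range that holds the livers of set 1, and the muscle markers summed to 1.03 to 407 CPM. Differences of Cort from untreated liver are therefore also given by set; the comparison of Dex with Cort was not made by set.

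The mammalian clock is a feedback loop of transcription. ARNTL (BMAL1) pairs with CLOCK, or with its relative NPAS2, and switches on genes that carry E-box motifs, among them the Per and Cry genes, whose products return to block the same pair. The nuclear receptors NR1D1 and NR1D2 (REV-ERB alpha and beta) are made under the same control and repress *Arntl* and *Npas2* through response elements near their start sites. DBP is an output factor that binds D-boxes, BHLHE40 (DEC1) competes for E-boxes, and WEE1 is a kinase that holds back entry into mitosis and links the clock to the cell cycle. In liver *Arntl* and *Npas2* peak about opposite to *Nr1d1* and *Dbp* over the day, and *Per1* is in addition a direct target of the glucocorticoid receptor.

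RefSeq start-site windows (GRCm38.p6, 250 bases before to 50 from the start on) were found for 7 of the 10 genes. The letters searched, on both strands, were the E-box CACGTG, the D-box TTATGTAA and the REV-ERB element TAGGTCA, which occur in 7.15%, 0.938% and 2.61% of all 32851 windows. Of the 7 genes, 3 held a match. *Per3* held 2 D-boxes (205 to 198 and 158 to 151 bases before the start), *Per1* an E-box (166 to 161 bases before it) and *Arntl* a REV-ERB element in its first transcribed bases (31 to 37 from the start). The stretches around these matches are shown because such motifs are the known contact points of the loop, and are written 5′ to 3′ on the gene's strand with the matches in capitals. A match of letters is a description and does not show that a factor binds. In the gene annotation used (GENCODE M21, GRCm38) *Per3* lies at chr4:151003652-151044665 (minus strand), *Per1* at chr11:69095217-69109960 (plus) and *Arntl* at chr7:113207465-113314126 (plus). The RefSeq start used for *Per1* lies inside this annotated span, so the E-box before that start is within the gene as annotated. The start used for *Arntl* also lies inside its span.
Per3, chr4:151044796-151044890, minus strand: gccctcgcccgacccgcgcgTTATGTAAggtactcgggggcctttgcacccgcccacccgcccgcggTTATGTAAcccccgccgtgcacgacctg
Per1, chr11:69098753-69098818, plus strand: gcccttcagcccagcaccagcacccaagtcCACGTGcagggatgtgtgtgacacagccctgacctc
Arntl, chr7:113207529-113207555, plus strand: gaaggcagaaagTAGGTCAgggacgga

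*Arntl* and *Npas2*, the activator genes of the loop, were higher in every treated liver experiment than in untreated liver, with the largest log2 differences 1 h after Dex. Levels below are CPM scaled over all 39 libraries (TMM). *Arntl* lay at 0.587 to 6.36 CPM in the 11 untreated livers (median 1.52) and at 1.97 to 13.3 CPM in the 8 Cort livers (median 5.75). After 3 weeks of Dex it was 36.1, 27.7 and 23.5 CPM in E47KO and 17.6 and 21.4 CPM in WT. One hour after Dex it was 29.4, 31.7 and 37.4 CPM in E47LKO and 31.8, 30.8 and 30.5 CPM in floxed livers. Every liver of either Dex experiment was thus above every untreated and Cort liver, whereas the Cort and untreated ranges overlapped. *Npas2* was close to the limit of counting in untreated liver, with 0 to 0.404 CPM (0 to 11 reads a library). It reached 0.186 to 0.726 CPM on Cort, 1.67 to 6.20 CPM on 3 weeks of Dex and 8.61 to 13.5 CPM at 1 h, so that only the Cort and untreated ranges touched.

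**Figure D1:**
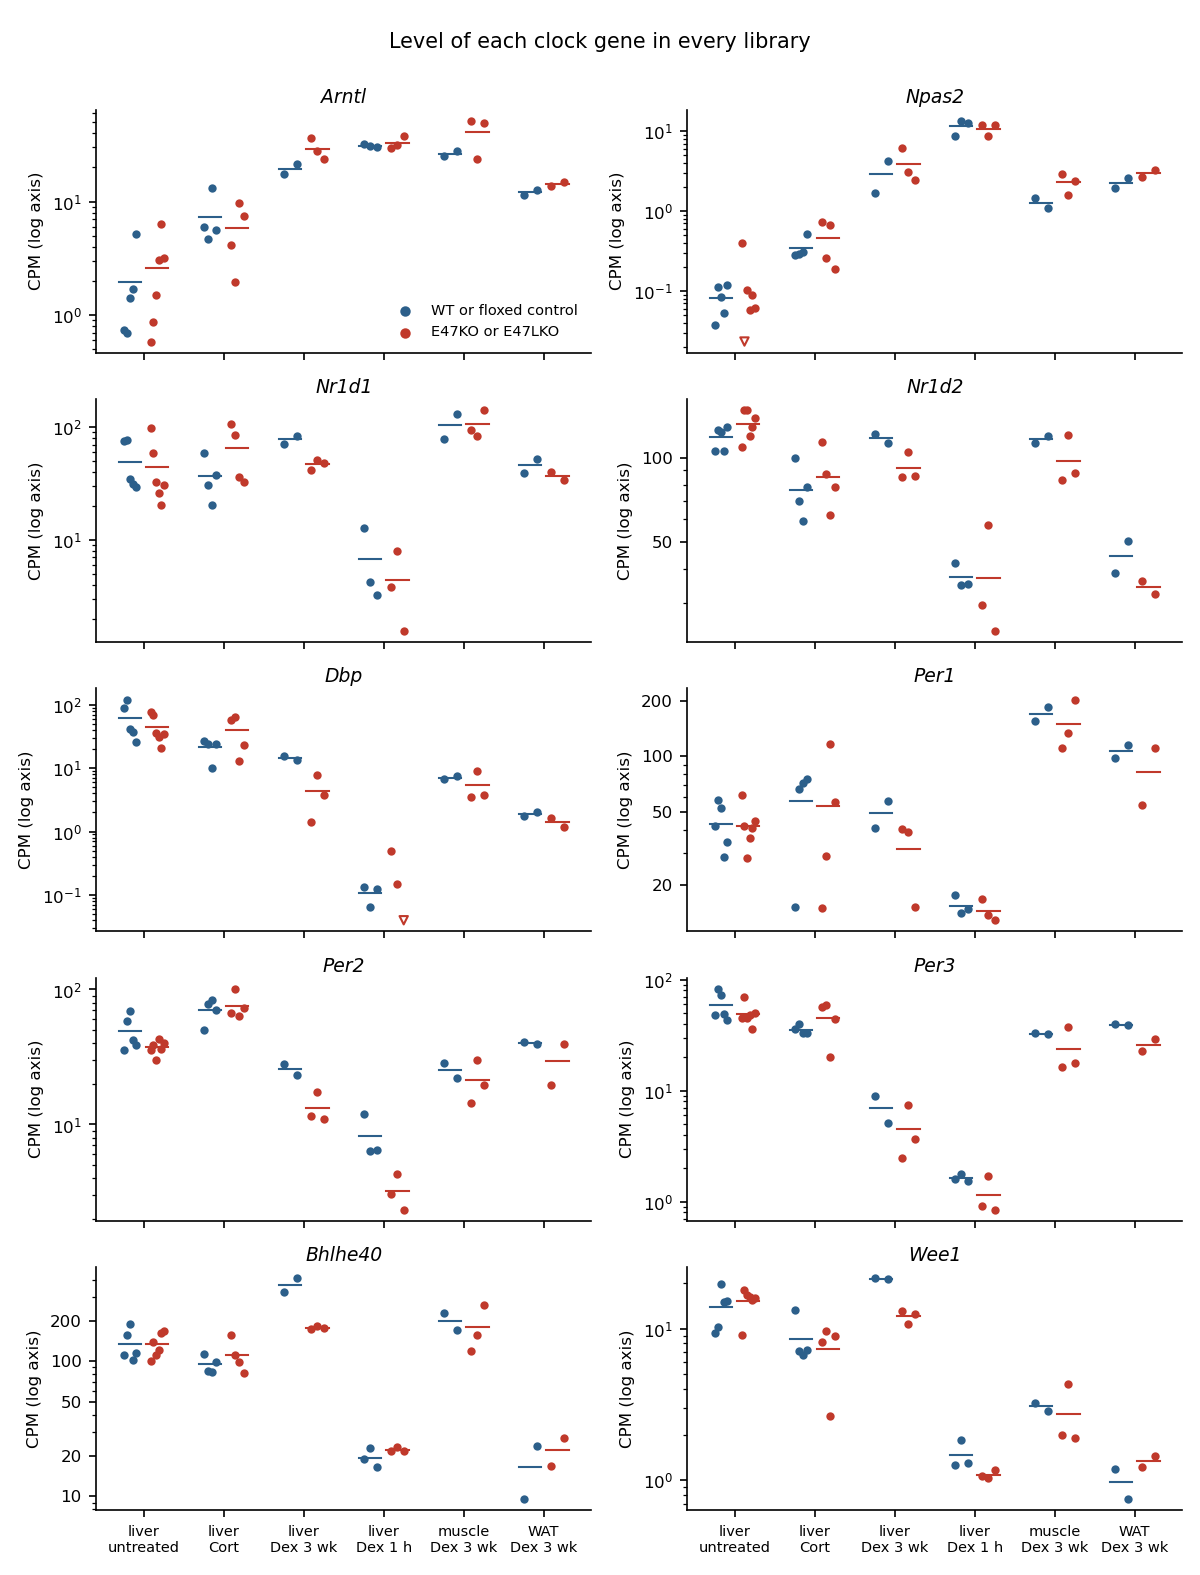
Level of the 10 genes in every library (CPM, log axis), by experiment; blue points are WT or floxed mice, red points E47KO or E47LKO mice, horizontal bars are group means, and open triangles are libraries with no read, drawn below the lowest value. In liver *Arntl* ranges from 0.587 CPM (untreated) to 37.4 CPM (1 h after Dex) and *Dbp* from 0 to 121 CPM.

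Experiments were compared in 1 edgeR fit of the 30 livers, averaging both genotypes, except at 1 h, where floxed livers were set against untreated WT livers. *Arntl* was higher by 1.52 ± 0.37 (SE) on the log2 scale on Cort than in untreated liver (edgeR adjusted p = 0.00118), by 3.40 ± 0.41 on 3 weeks of Dex (1.57e-07) and by 3.98 ± 0.58 at 1 h (2.91e-05). *Npas2* was higher by 2.03 ± 0.40, 5.10 ± 0.39 and 7.11 ± 0.55 in the same comparisons (edgeR adjusted p = 0.00014, 6.52e-11 and 1.25e-09). In E47KO livers alone *Arntl* on Cort was not past the threshold (1.15, 0.0714). Because untreated livers held so few *Npas2* reads, its folds were also taken from pooled reads with 95% exact intervals for counting error: 4.17 (2.86 to 6.22) on Cort, 36.4 (25.6 to 53.1) on Dex and 145 (83.9 to 274) at 1 h. Each of these comparisons uses untreated livers as its base, so they are not independent of one another. Their experiments also differ in library kit, animals, feeding and handling before death and possibly in the hour of sampling, which cannot be told apart from the treatment, and in bulk tissue fewer cells of a type and less RNA per cell cannot be told apart either.

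The REV-ERB genes did not share 1 pattern across experiments. *Nr1d1* lay at 20.4 to 99.3 CPM in untreated, 20.3 to 107 CPM in Cort and 41.8 to 84.5 CPM in Dex livers, ranges that overlap. Its log2 differences from untreated liver were 0.07 ± 0.33 on Cort and 0.38 ± 0.38 on Dex, neither past the threshold (edgeR adjusted p = 0.87 and 0.414). At 1 h it was 12.7, 4.26 and 3.27 CPM in floxed and 3.80, 7.95 and 1.56 CPM in E47LKO livers, all below the lowest untreated liver, and floxed livers differed from untreated WT livers by -2.87 ± 0.61 on the log2 scale (edgeR adjusted p = 0.00143). *Nr1d2* lay at 106 to 148 CPM untreated, 59.4 to 114 CPM on Cort, 85.3 to 122 CPM on Dex and 23.9 to 57.5 CPM at 1 h. It was lower on Cort (log2 -0.62 ± 0.13, edgeR adjusted p = 0.00035) and at 1 h (-1.65 ± 0.22, 9.64e-06), while on Dex the difference was -0.25 ± 0.16 (0.188). With the Cort livers of set 1 alone it was not past the threshold (-0.33, 0.162; set 2, -0.83, 8.38e-05).

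*Dbp*, the output factor, was lower than in untreated liver in all 3 comparisons. Untreated livers held 20.8 to 121 CPM (median 37.6), Cort livers 9.89 to 65.0 CPM (median 24.2). On 3 weeks of Dex it was 15.6 and 13.4 CPM in WT and 1.42, 7.92 and 3.75 CPM in E47KO livers. At 1 h there were 1 to 2 *Dbp* reads in each floxed liver and 0 to 7 in each E47LKO liver, that is at most 0.493 CPM. The order untreated, 3 weeks of Dex and 1 h held without overlap of any library, and the Cort range overlapped those of untreated and Dex livers. Log2 differences of *Dbp* from untreated liver were -0.86 ± 0.34 on Cort (edgeR adjusted p = 0.0351), -2.71 ± 0.47 on Dex (3.42e-05) and -9.13 ± 1.05 at 1 h (9.59e-07). The call on Cort was lost without any 1 of Cort WT 3, Cort E47KO 3 or 4 and untreated WT 1 or 2 (adjusted p 0.0602 to 0.0891), in E47KO livers alone (-0.17, 0.805) and in a fit of the groups compared only (-0.85, 0.0532). From pooled reads, untreated WT livers held 549 times (95% exact interval 235 to 1691) the *Dbp* level of floxed livers at 1 h, and untreated E47KO livers 208 times (109 to 455) that of E47LKO livers. *Dbp* overlaps the exons of *Sphk2* on the opposite strand by 539 bases, and *Nr1d1* those of *Thra* by 263 bases, so in unstranded counts some reads cannot be assigned between them.

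**Figure D2:**
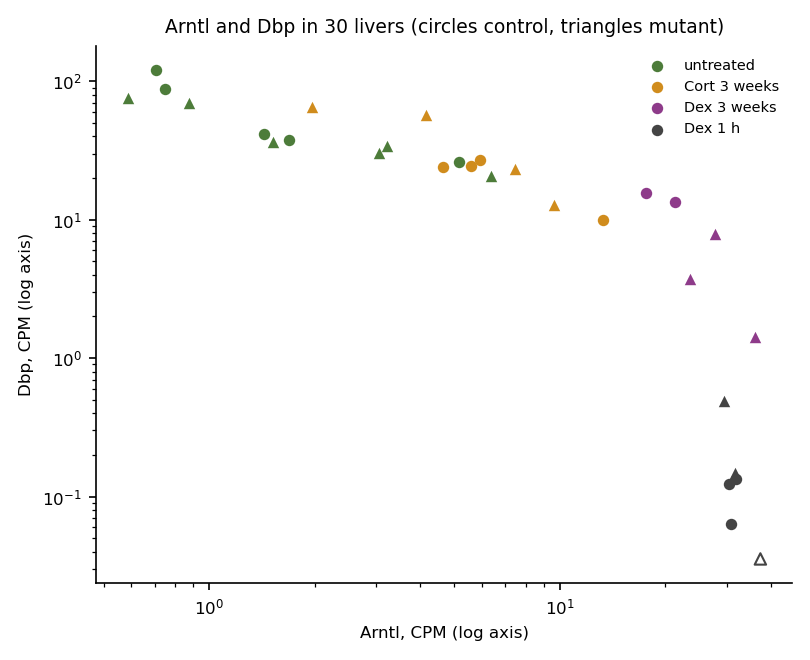
*Dbp* against *Arntl* (CPM, both axes logarithmic) in the 30 livers, 1 point a liver; colours give the experiment, circles control mice, triangles mutants, and the open triangle an E47LKO liver with no *Dbp* read. Untreated livers lie at the upper left (*Arntl* 0.587 to 6.36 CPM), the livers at 1 h after Dex at the lower right (*Dbp* at most 0.493 CPM).

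The Per genes, the negative limb of the loop, separated from one another. *Per3* lay at 36.0 to 82.5 CPM in untreated and 20.2 to 59.0 CPM in Cort livers. It was 2.49, 7.35 and 3.69 CPM in E47KO and 8.87 and 5.05 CPM in WT livers on Dex, and 0.845 to 1.78 CPM in the 6 livers at 1 h. All Dex livers were below all Cort and untreated ones, with log2 differences from untreated liver of -3.24 ± 0.28 on Dex and -5.16 ± 0.41 at 1 h (edgeR adjusted p = 6.08e-10 and 2.24e-09). On Cort it was -0.43 ± 0.19 and missed the threshold (0.059), which 7 of 22 alternatives passed, among them WT livers alone (-0.74, 0.0377), the strand column (-0.46, 0.0255), and leaving out any 1 of Cort E47KO 1 or 2 and untreated WT 1 or 5 (adjusted p 0.035 to 0.0481).

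*Per2* was the only Per gene past the threshold in the upward direction on Cort. It lay at 50.5 to 101 CPM in Cort and 30.1 to 69.5 CPM in untreated livers (log2 difference 0.78 ± 0.14, edgeR adjusted p = 7.41e-05), but missed the threshold in WT livers alone (0.53, 0.0531). On Dex it was 11.6, 17.4 and 10.9 CPM in E47KO and 28.0 and 23.1 CPM in WT livers, a log2 difference from untreated liver of -1.19 ± 0.19 (7.38e-06). At 1 h it was 2.34 to 11.9 CPM, a difference of -2.57 ± 0.27 (2.16e-07).

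*Per1*, on which the glucocorticoid receptor acts directly, was 27.9 to 61.6 CPM in untreated livers, 15.1 to 116 CPM on Cort and 15.2 to 57.4 CPM on Dex. Neither chronic treatment passed the threshold (log2 0.39 ± 0.29 on Cort and -0.10 ± 0.35 on Dex, edgeR adjusted p = 0.268 and 0.83). At 1 h the 6 livers lay between 12.9 and 17.6 CPM, below every untreated liver. The difference of floxed from untreated WT livers was -1.46 ± 0.49 (edgeR adjusted p = 0.0366), a call that was lost without any 1 of floxed 1, 2 or 3 and untreated WT 2 or 3 (adjusted p 0.0596 to 0.121). *Tsc22d3*, another direct target of the receptor, was higher in the same comparison (365 against 112 CPM, log2 1.72 ± 0.51, edgeR adjusted p = 0.0184).

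The pooled *Per1* value on Cort hid a split between the sets of animal numbers. The 3 Cort livers of set 1 held 15.3, 15.1 and 28.7 CPM, and the 5 of set 2 held 66.2, 71.8, 75.4, 116 and 56.3 CPM. Set 1 alone was lower than untreated liver (log2 -1.23, edgeR adjusted p = 0.00308) and set 2 alone was higher (0.88, 0.00108), so the direction depended on the set. These comparisons by set were added after the split was seen. *Arntl* and *Dbp* differed from untreated liver by 0.90 and -0.39 with set 1, neither past the threshold (edgeR adjusted p = 0.158 and 0.527), and by 1.85 and -1.50 with set 2, both past it (0.00057 and 0.00368). *Nr1d2*, *Bhlhe40* and *Wee1* likewise passed with set 2 only, and so did *Per3* (-0.24, 0.471 with set 1 and -0.67, 0.0157 with set 2), whereas *Npas2* (1.91 and 2.03, 0.0101 and 0.000885) and *Per2* (0.60 and 0.77, 0.028 and 0.000333) passed with either. The difference between the sets was not tested. *Nr1d1* lay at 59.6 to 107 CPM in set 1 and at 20.3 to 37.6 CPM in set 2, without overlap. The *Fkbp5* and muscle marker levels given above moved with the same split, and their part in it was not tested.

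*Bhlhe40*, the E-box competitor, was higher than in untreated liver on 3 weeks of Dex and lower on Cort and at 1 h, and *Wee1* was lower on Cort and at 1 h. *Bhlhe40* was 173, 183 and 176 CPM in E47KO and 323 and 411 CPM in WT livers on 3 weeks of Dex, against 100 to 188 CPM untreated and 81.1 to 157 CPM on Cort and 16.6 to 23.0 CPM at 1 h. The log2 differences from untreated liver were 0.94 ± 0.14 on Dex (edgeR adjusted p = 5.71e-06), -0.38 ± 0.13 on Cort (0.015) and -2.79 ± 0.23 at 1 h (3.43e-09). In E47KO livers alone the differences on Dex (0.43, 0.078) and on Cort (-0.25, 0.274) were not past the threshold, nor was that on Cort with set 1 alone (-0.13, 0.587; set 2, -0.58, 0.00147). *Wee1* was 9.03 to 19.6 CPM untreated, 2.64 to 13.2 CPM on Cort, 10.7 to 21.5 CPM on Dex and 1.03 to 1.85 CPM at 1 h. It was lower on Cort (-0.87 ± 0.19, edgeR adjusted p = 0.000461) and at 1 h (-3.23 ± 0.38, 1.21e-06), and on Dex the difference was 0.16 ± 0.22 (0.571). The call on Cort was lost in WT livers alone (-0.70, 0.0511) and with set 1 alone (-0.43, 0.0963; set 2, -1.19, 0.000109).

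Counted together, 7 of the 10 genes passed the threshold on Cort (3 higher, 4 lower), where 52.4% of the 16227 genes tested did (27.2% higher, 25.2% lower). On 3 weeks of Dex it was 6 genes (3 higher, 3 lower) beside 51.4% of all genes (25% and 26.4%). At 1 h all 10 passed (2 higher, 8 lower) beside 20.4% of all genes (10.0% and 10.4%). The shares on Cort and 3 weeks of Dex were near those of all genes. Median log2 differences of the 10 genes were -0.15, 0.03 and -2.68 in this order, beside 0.00, -0.02 and -0.04 over all genes tested.

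Dex and Cort were given for the same 3 weeks but at different concentrations and in separate experiments. Between Dex and Cort livers 7 of the 10 genes passed the threshold (4 higher and 3 lower on Dex), where 43.2% of all genes did (19.6% higher, 23.6% lower). Higher on Dex were *Npas2* (log2 3.08 ± 0.36, edgeR adjusted p = 2.16e-07), *Arntl* (1.88 ± 0.43, 0.000954), *Bhlhe40* (1.32 ± 0.15, 2.29e-07) and *Wee1* (1.03 ± 0.23, 0.000753). Lower on Dex were *Per3* (-2.81 ± 0.28, 1.8e-08), *Per2* (-1.97 ± 0.20, 2.69e-08) and *Dbp* (-1.85 ± 0.46, 0.00225). In WT livers alone the differences of *Arntl* (1.42, adjusted p 0.108) and *Dbp* (-0.54, 0.586) were not past the threshold, nor in E47KO livers alone was that of *Wee1* (0.74, 0.0781). *Fkbp5* differed by 0.57 ± 0.48 (0.35) between these experiments.

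**Figure D3:**
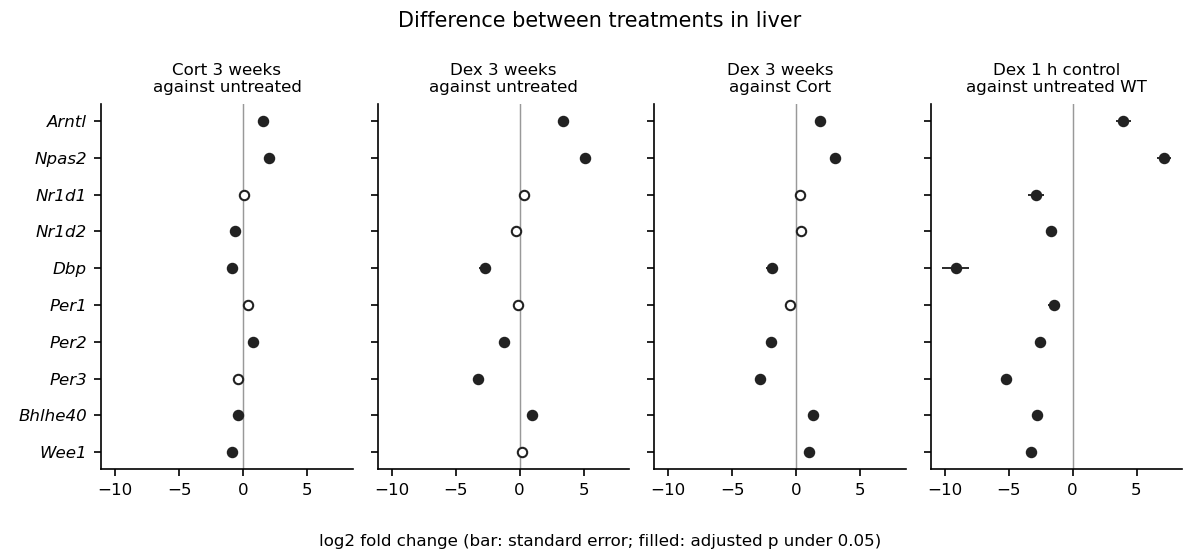
Log2 differences of the 10 genes between liver experiments, with standard errors as bars; filled points have an edgeR adjusted p under 0.05. *Arntl* and *Npas2* are above 0 in all 4 panels, *Dbp* below 0 in all 4 (down to -9.13 at 1 h), and *Bhlhe40* lies on different sides.

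The rest of the clock, 20 further genes, was read alongside. On Cort 9 of 20 passed the threshold (3 higher, 6 lower), beside 52.4% of all genes tested. They included *Clock*, the partner of ARNTL (log2 0.43 ± 0.18, edgeR adjusted p = 0.0431), and *Nfil3*, a repressor at D-boxes (1.12 ± 0.20, 4.01e-05). On 3 weeks of Dex 19 of 20 did (9 higher, 10 lower), beside 51.4% of all genes. *Clock* was higher by 1.68 ± 0.20 (1.15e-07) and *Cry1* by 0.95 ± 0.27 (0.00415), and *Cry2* (-0.86 ± 0.12) and *Tef*, a relative of *Dbp* (-1.31 ± 0.16), were lower (edgeR adjusted p = 1.09e-06 and 2.1e-07). Between Dex and Cort 16 of 20 passed (7 higher, 9 lower on Dex), beside 43.2% of all genes. At 1 h 11 of 20 did (4 higher, 7 lower), beside 20.4% of all genes. Among them were *Tef* (-2.96 ± 0.23, 1.25e-09), *Bhlhe41* (-3.84 ± 0.60, 6.19e-05), *Nfil3* (2.46 ± 0.31, 3.4e-06) and *Clock* (1.54 ± 0.27, 0.000242). Of 12 glucocorticoid receptor targets, 4 were higher and 2 lower on Cort, 9 were higher on Dex and 7 at 1 h, and of 10 immediate early genes 5, 9 and 4 were higher, with none of either list lower in the last 2 comparisons.

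The untreated livers varied widely in the clock genes without any treatment. *Arntl* differed 10.8-fold between the highest and the lowest of the 11. Livers with more *Arntl* held less *Dbp* (Pearson's r = -0.93, Spearman's rho = -0.95, n = 11, two-sided permutation p = 9.00e-05 and 5.00e-05) and less *Nr1d1* (r = -0.91, rho = -0.97, permutation p = 0.000240 and 1.00e-05, the last being the smallest that the resamples can give). Adjusted over the 9 genes related to *Arntl* in this way, the permutation p of Pearson's r was 0.000810 for *Dbp* and 0.00108 for *Nr1d1*, and 0.196 or more for the other 7. Leaving out the 2 livers farthest from the median of *Arntl* (WT 5 and E47KO 5) left r at -0.90 and -0.94 (n = 9, permutation p = 0.00137 and 3.00e-05).

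The animal numbers in the library names grouped these livers as well. *Arntl* was 0.587 to 0.747 CPM in the 2 livers of set 1, 0.704 to 1.43 CPM in the 3 of set 2, 1.52 to 3.06 CPM in the 3 of set 3 and 3.22 to 6.36 CPM in the 3 of set 4, and each set held both genotypes. Only sets 1 and 2 overlapped. Mean *Dbp* was 82.1, 77.4, 34.9 and 27.0 CPM in sets 1 to 4. The permutations above treated the livers as exchangeable across sets, so their p and adjusted p may be too small. With each set centred on its mean, a check added after the sets were seen, r was -0.79 for *Dbp* and -0.85 for *Nr1d1* (permutation p adjusted over the 9 genes, 0.00621 for both). These permutations moved centred values across sets and took no account of the set means removed. The p may therefore be too small and does not measure association within sets. Sets of 2 or 3 livers are too small for a correlation within each.

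Over all 30 livers, after centring each group on its mean, the genes whose log2 CPM was most like that of *Arntl* were *Clock* (r = 0.91), *Naa25* (0.90), *Desi2* (0.86), *Osbpl11* and *Gfra1* (both 0.85). Nearest to *Dbp* were *Il15* (0.86), *Chadl* (0.81), *Plgrkt* (0.78), *Gm17634* (0.77) and *Gm37962* (0.76). *Arntl* itself had r = -0.74 with *Dbp*, -0.69 with *Nr1d1* and 0.69 with *Cry1*. *Per1* did not go with *Arntl* (0.12) or *Dbp* (-0.19) but had r = 0.78 with *Tsc22d3* and 0.72 with *Fkbp5*. These are descriptions over 16227 genes in livers that share experiments and animal-number sets, without a test.

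After 3 weeks of Dex the libraries of liver, muscle and WAT were all unstranded, but their depth differed by tissue. They held 17.5 to 21.4 M reads counted in genes in liver, 40.4 to 46.0 M in muscle and 34.5 to 43.0 M in WAT. Depth and any other difference in how these libraries were made cannot be told apart from tissue. The TMM factors that multiply library size were 1.61 to 1.77 in WAT, 0.86 to 0.98 in liver and 0.93 to 1.08 in muscle. Levels in WAT are therefore lower than by library size alone. Tests between tissues all used TMM or similar scaling. Smaller differences from WAT depend on it, such as that of *Per1* between muscle and WAT (log2 0.83). Compared per length, in CPM per kilobase of exon, *Bhlhe40* had the highest mean level of the 10 genes in liver (53.8) and muscle (39.6), and *Per1* in WAT (16.8). The lowest was *Per3* in liver (0.571), *Npas2* in muscle (0.396) and *Wee1* in WAT (0.337). *Wee1* was highest in liver, at 10.7 to 21.5 CPM in liver against 1.89 to 4.33 CPM in muscle and 0.751 to 1.44 CPM in WAT, with no overlap. *Per1* and *Per3* stood the other way, with *Per1* at 15.2 to 57.4 CPM in liver, up to 203 CPM in muscle (median 155) and 54.2 to 115 CPM in WAT, and *Per3* at 2.49 to 8.87, 16.3 to 37.5 and 22.6 to 39.5 CPM. For *Per1* muscle and WAT, and liver and WAT, shared part of their ranges, whereas for *Per3* only muscle and WAT did.

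Between liver and muscle 6 of the 10 genes passed the threshold (2 higher and 4 lower in liver), beside 76.4% of 18113 genes (36.0% and 40.4%). *Wee1* was higher in liver by 2.34 ± 0.22 on the log2 scale (edgeR adjusted p = 7.86e-07) and *Npas2* by 0.85 ± 0.32 (0.03). Lower in liver were *Per3* (-2.43 ± 0.31, 1.27e-05), *Per1* (-2.14 ± 0.30, 2.64e-05), *Nr1d1* (-0.93 ± 0.18, 0.000385) and *Arntl* (-0.60 ± 0.20, 0.0161). The call of *Arntl* was lost without liver WT 1 (-0.54, 0.0607), and that of *Npas2* without any 1 of liver E47KO 1 or WT 2 and muscle E47KO 2 or WT 2 (0.45 to 0.74, adjusted p 0.0594 to 0.255). With the 3 mice that gave both tissues as a replicate block, 7 genes passed, beside 11968 of all genes. There *Arntl* was lost (-0.34, 0.103), and *Per2* (-0.45, 0.0233) and *Bhlhe40* (0.36, 0.0222) were gained. In WT libraries alone 3 passed, beside 11819 of all genes.

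Liver differed from WAT in 9 of 10 genes (6 higher, 3 lower in liver; background 75.4%, with 33.8% and 41.6%). *Wee1* (log2 3.76 ± 0.26, edgeR adjusted p = 4.34e-08) and *Bhlhe40* (3.69 ± 0.32, 3.75e-07) were higher in liver, with *Bhlhe40* at 9.56 to 27.2 CPM in WAT. *Dbp* was higher by 2.23 ± 0.42 (0.000373) and *Nr1d2* by 1.36 ± 0.13 (1.26e-06). *Arntl* (0.81 ± 0.21, 0.00412) and *Nr1d1* (0.50 ± 0.19, 0.0275) were higher by less, and the call of *Nr1d1* was lost without any 1 of liver E47KO 2 or WT 2 and WAT WT 1 or E47KO 3 (adjusted p 0.0525 to 0.119) and in E47KO libraries alone (0.29, 0.327). Both differences depend on the WAT scaling given above, and their direction was not tested by library size alone. The Per genes were lower in liver: *Per3* differed by -2.55 ± 0.32, *Per1* by -1.30 ± 0.30 and *Per2* by -0.95 ± 0.24 (edgeR adjusted p = 1.21e-05, 0.00165 and 0.00344). In WT libraries alone *Arntl* (0.64, 0.0916) and *Per2* (-0.70, 0.106) were not past the threshold. Muscle differed from WAT in 7 of 10, all higher in muscle (background 77.3%, with 33.8% higher and 43.5% lower), from *Bhlhe40* (3.37 ± 0.31, edgeR adjusted p = 6.63e-07) to *Per1* (0.83 ± 0.30, 0.0225). The call of *Per1* was lost without any 1 of muscle E47KO 3 or WT 2 and WAT E47KO 2 or WT 1 (0.62 to 0.78, adjusted p 0.0528 to 0.0914), in WT libraries alone (0.75, 0.147) and in E47KO libraries alone (0.92, 0.0628). Of the 20 further clock genes 17 of 20 differed between liver and muscle (4 higher in liver), 17 between liver and WAT (12 higher in liver) and 18 between muscle and WAT (17 higher in muscle). *Clock* was higher in liver than in muscle (1.67 ± 0.20, 6.09e-06), the opposite side from its partner *Arntl*, and *Cry2* was lower (-1.92 ± 0.18, 6.43e-07). Median log2 differences of the 10 genes were -0.30 between liver and muscle, 0.65 between liver and WAT and 1.41 between muscle and WAT, beside -0.11, -0.19 and -0.25 over all genes tested.

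By their library names, 3 mice gave both liver and muscle: E47KO 1, E47KO 2 and WT 1. E47KO mouse 1 stood outside the other 2 mice on the same side in both tissues in 7 of the 10 genes, where 24.7% of 16003 genes did. It was high in the activators, with *Arntl* at 36.1 CPM in liver and 51.4 CPM in muscle (27.7 and 23.7 in E47KO 2, 17.6 and 25 in WT 1) and *Npas2* at 6.20 and 2.94 CPM (3.10 and 1.58, 1.67 and 1.47). It was low in *Dbp*, at 1.42 CPM in liver and 3.46 CPM in muscle (7.92 and 8.86 in E47KO 2, 15.6 and 6.70 in WT 1). On the log2 scale its distance from the mean of the other 2 was 0.69 in liver and 1.12 in muscle for *Arntl*, -2.93 and -1.10 for *Dbp*, -1.69 and -1.06 for *Per3*, and -0.94 and -0.98 for *Per2*. *Nr1d2* and *Bhlhe40* were also low in both. *Nr1d1*, *Per1* and *Wee1* did not follow. The count of 7 genes was made for E47KO mouse 1 only, outside the planned comparisons, and not for the other 2 mice. Genes linked in 1 loop and read in 1 animal are not separate observations.

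The order of all 3 mice was the same in both tissues for 2 of the 10 genes, *Npas2* and *Bhlhe40*, beside 18.4% of all genes. With 3 mice no test of agreement between tissues was made. Muscle E47KO 3 had an *Arntl* and a *Dbp* level close to those of mouse 1 (48.9 and 3.77 CPM), whereas the other 3 muscles lay at 23.7 to 27.9 CPM and 6.70 to 8.86 CPM.

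**Figure D4:**
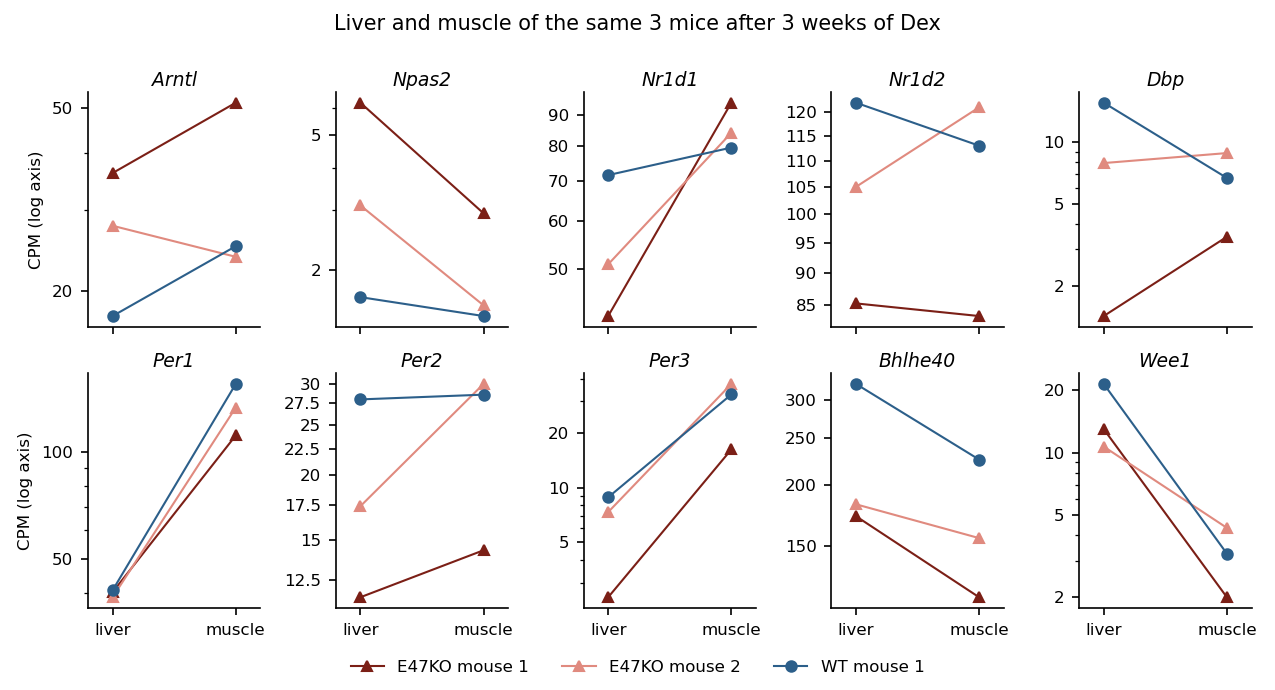
CPM (log axis, a scale of its own in each panel) of the 10 genes in liver and muscle of the 3 mice that gave both, on Dex for 3 weeks; each line joins the tissues of 1 mouse. The dark line (E47KO mouse 1) is the highest in both tissues for *Arntl* and *Npas2* and the lowest in both for *Nr1d2*, *Dbp*, *Per2*, *Per3* and *Bhlhe40*.

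None of the 10 genes passed the threshold between mutant and control mice in any of the 6 experiments by edgeR, where the share of all genes called was itself small: 0.00752% in Dex liver, 0.0274% in Cort liver, 0% at 1 h, 0.0288% in untreated liver, 0% in WAT and 0.0134% in muscle. At an unadjusted p under 0.05 there were 6 of the 10 in Dex liver, 1 each at 1 h, in untreated liver, in WAT and in muscle, and 0 on Cort. Over all genes the same threshold was passed by 409 of 13300 in Dex liver, 466 of 12601 at 1 h, 505 of 13904 in untreated liver, 699 of 16289 in WAT, 590 of 14962 in muscle and 1435 of 14588 on Cort. DESeq2 called 3 in Dex liver and 0 elsewhere. Over all genes it called 24 in Dex liver, 270 on Cort, 6 at 1 h, 11 in untreated liver, 37 in WAT and 93 in muscle. *Dbp* at 1 h and *Npas2* in untreated liver had too few reads to be tested.

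In Dex liver 8 of the 10 genes did not overlap between 3 E47KO and 2 WT libraries, beside 15.1% of all genes, and their median log2 difference was -0.68 beside 0.00. *Arntl* lay higher in E47KO, and *Nr1d1*, *Nr1d2*, *Dbp*, *Per1*, *Per2*, *Bhlhe40* and *Wee1* lay lower in each E47KO liver than in either WT liver. For *Per1* the nearest levels were 40.2 CPM (E47KO 1) and 40.7 CPM (WT 1). Genes linked in 1 loop are not separate observations, in this count or in those of the other experiments. *Bhlhe40* differed by -1.04 ± 0.15 on the log2 scale (edgeR unadjusted p = 0.000293, adjusted p = 0.556; 2.35e-06 by DESeq2, and from 2.35e-06 to 1 over 11 alternatives). *Wee1* (13.0, 10.7 and 12.5 CPM in E47KO, 21.5 and 21.2 CPM in WT) differed by -0.82 ± 0.14 and *Nr1d1* (41.8, 50.9 and 48.1 CPM, 71.5 and 84.5 CPM) by -0.73 ± 0.14, with edgeR adjusted p of 0.999 for both (0.0196 to 1 and 0.0401 to 1 over the same alternatives). *Dbp* and *Per2* differed by -1.72 ± 0.58 and -0.93 ± 0.23 and *Arntl* by 0.58 ± 0.22, each also with an adjusted p of 0.999. In E47KO liver 3 *Per1* (15.2 CPM) was lower than in the other 4 (38.9 to 57.4 CPM), as was *Fkbp5* (83.5 CPM against 373 to 637 CPM).

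The difference of *Bhlhe40* in Dex liver was set against that in untreated liver, where the means were 134 CPM in E47KO and 135 CPM in WT. The difference between these genotype differences was -1.03 ± 0.30 (unadjusted p = 0.00185, edgeR adjusted p = 1). None of the 10 genes passed this test, nor the same test for Cort, by edgeR or DESeq2, and 0.00616% of all genes did in each. At an unadjusted p under 0.05 there were 2 genes for Dex (*Bhlhe40* and *Wee1*) and 1 for Cort (*Dbp*, 1.39 ± 0.67, unadjusted p = 0.0466 and edgeR adjusted p = 0.709), beside 672 and 1118 of all 16227 genes.

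In the other experiments the mutant and control ranges mostly overlapped. On Cort none of the 10 genes was without overlap (background 6.35%), and none of the 9 tested in untreated liver (0.424%). In these experiments each animal-number set held both genotypes, and some genes lay apart between sets, such as *Nr1d1* on Cort and *Arntl* in untreated liver. For such genes the sets alone make the genotype ranges overlap, so the overlap does not show a lack of difference. No alternative, the set as a covariate among them, called any of the 10 genes on Cort or of the 9 in untreated liver. At 1 h *Per2* and *Wee1* were, 2 of 9 beside 8.57%: *Per2* was 3.03, 4.27 and 2.34 CPM in E47LKO and 11.9, 6.37 and 6.42 CPM in floxed livers (log2 -1.34 ± 0.31, unadjusted p = 0.00255, edgeR adjusted p = 1). In muscle it was *Npas2* alone (1 of 10 beside 16.9%), higher in E47KO (2.94, 1.58 and 2.41 against 1.47 and 1.08 CPM).

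In WAT, with 2 mice a group, 6 of 10 genes did not overlap beside 33.0% of all genes, *Arntl*, *Npas2* and *Wee1* being higher and *Nr1d2*, *Dbp* and *Per3* lower in E47KO. *Per3* was 22.6 and 28.9 CPM in E47KO and 39.5 and 39.1 CPM in WT (-0.62 ± 0.14, unadjusted p = 0.00622, edgeR adjusted p = 0.977). Without E47KO library 3 the remaining E47KO library differed from WT in *Per1* (-0.97), *Per2* (-1.03) and *Per3* (-0.80), a fit in which the lone library is assumed to vary like the WT ones. That library, E47KO 2, was also low in *Fkbp5* (201 CPM against 401 to 472 CPM in the other WAT libraries). The same held for *Tsc22d3* (236 CPM against 340 to 358 CPM). Among the 20 further clock genes edgeR and DESeq2 called none for genotype in any experiment, and at an unadjusted p under 0.05 in edgeR there were 4 each in Dex liver and muscle, 1 each in Cort liver and WAT and 0 in the others.

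**Figure D5:**
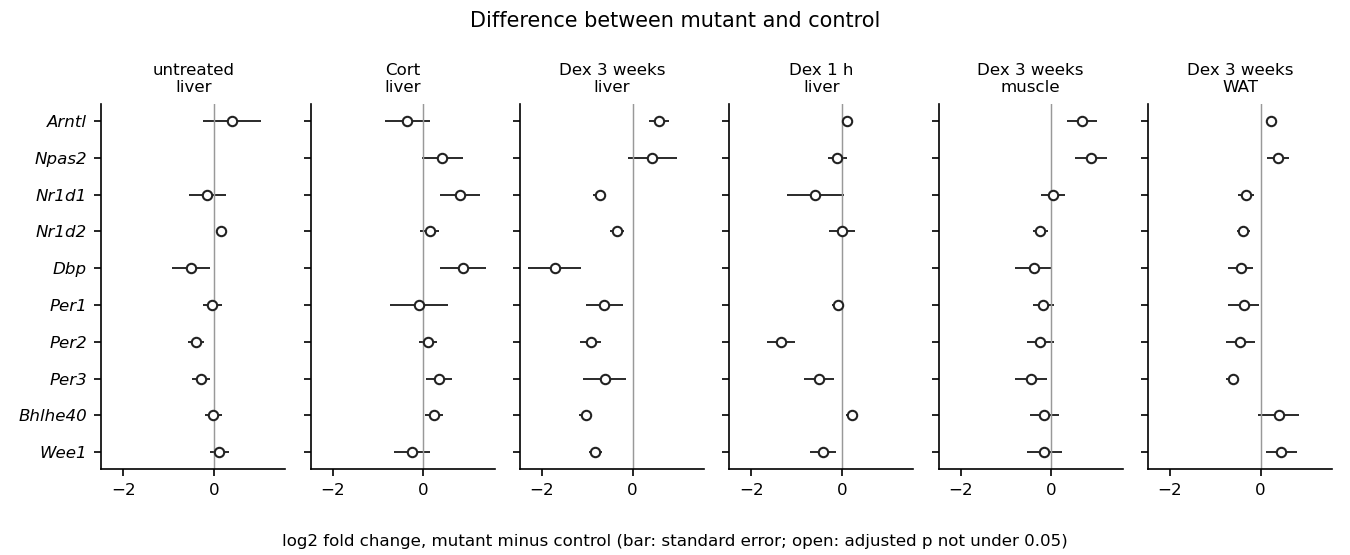
Log2 differences of mutant from control for the 10 genes in the 6 experiments, with standard errors as bars; all points are open because no edgeR adjusted p was under 0.05, and *Npas2* in untreated liver and *Dbp* at 1 h are left out for low counts. In Dex liver 8 of 10 points lie below 0, the lowest being *Dbp* at -1.72.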

How the data were processed

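The authors prepared poly(A) libraries and, per the study's methods and the processing notes, mapped reads to mm10 and counted them per gene with STAR 2.4.2a. The deposited files hold raw counts, 1 file per library, not normalized or pooled. The counter of the Dex tissue files, which close with lines named as another program names them, is not given in the sources used here. The unstranded counts were used throughout: Cort libraries are labelled stranded, but 50.1% of their reads fell in the larger strand column, against 96.9% to 97.7% in the other stranded libraries. Entries that name no gene (20.8% to 36.8% of a library) were left out. A further 6 deposited tables hold DESeq2 comparisons made by the authors (normalized counts, fold changes, p-values) and were not used.

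Tests were edgeR 4.0.16 quasi-likelihood F-tests (R 4.3.3) with TMM scaling, filterByExpr and Benjamini-Hochberg adjustment over all genes tested, with a threshold of 0.05. Genotypes were compared within an experiment, treatments in a joint fit of the 30 livers, tissues in a joint fit of the Dex libraries, and genotype by treatment as a contrast of the liver fit. Scripts were tested on simulated counts. SE is the log2 difference divided by the square root of F. Correlations used log2 CPM (prior count 2) and 100000 resamples. Intervals of pooled read ratios are exact at 95% and cover counting error only. Each library is 1 mouse, apart from the mice that gave several tissues. DESeq2 1.42.0, RLE factors, no filter, the strand column, a replicate block, animal-number sets, single genotypes and leaving out each library in groups of 2 to 5 were the alternatives; the 6 untreated E47KO livers were not left out in turn.

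The text names the 10 genes, up to 5 further clock genes per comparison with the smallest adjusted p as well as *Clock*, *Cry1* and *Cry2*, *Tcf3*, *Fkbp5* and *Tsc22d3* as checks, and the 5 genes nearest in pattern to *Arntl* and to *Dbp*; 1 gene that this rule names is not reported here. The genes and lists were chosen with earlier results of these data known. Replicate numbers did not pair mutant and control libraries in any experiment (lowest correlation of deviations between -0.48 and 0.04). The mice that gave liver and muscle were matched by animal numbers in the library names.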

Additional observations from a re-analysis of the deposited data

Results flagged for a closer look

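In 40 tests of a gene within a group of 4 or more libraries, 7 libraries lay far outside the range of the others, by a test that chance alone passes in about 1 of 20 groups. On Cort they were all in WT livers. *Arntl* was 13.3 CPM in WT 3 (4.66 to 5.92 in the others), *Npas2* 0.521 CPM in WT 4 (0.279 to 0.306), *Per1* 15.3 CPM in WT 1 (66.2 to 75.4) and *Wee1* 13.2 CPM in WT 1 (6.74 to 7.24). WT 1 is the only WT liver of Cort set 1. Among untreated livers *Arntl* was 5.17 CPM in WT 5 (0.704 to 1.69), *Wee1* 9.03 CPM in E47KO 1 (15.4 to 18.0) and *Npas2* 0.404 CPM in E47KO 1 (0 to 0.103), the last from 11 reads. WT 5 belongs to the set of animal numbers in which the E47KO livers were also high (*Arntl* 6.36 and 3.22 CPM), and *Wee1* was 9.30 CPM in WT 1, the other liver of the set of E47KO 1.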

How the results depend on the processing

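The number of the 10 genes past the threshold moved by over 1.5 times in these cases. For genotype in Dex liver it was 0 in edgeR, 2 without a filter (*Bhlhe40* and *Dbp*, adjusted p 0.0096 and 0.0491) and 3 by DESeq2 (*Bhlhe40*, *Wee1* and *Nr1d1*, 2.35e-06, 0.0196 and 0.0401). For Cort against untreated liver it was 7 (8502 of all genes), and 4 in E47KO livers alone (6314 of all genes). With the Cort livers of set 1 alone it was 3 (6046 of all genes), among them *Per1* in the downward direction. With set 2 alone it was 9 (7161 of all genes). For liver against muscle it was 6 (13835 of all genes), and 3 in WT libraries alone (11819 of all genes). The only value that turned its direction with the threshold passed was that of *Per1* on Cort, 0.39 with all Cort livers and -1.23 with set 1 alone. Leaving out 1 library at a time, which was not done for the 6 untreated E47KO livers, gave 0 to 3 for genotype in WAT (3 without E47KO library 3) and 0 in the other genotype tests, 6 to 8 for Cort, 6 for Dex and 9 to 10 for 1 h against untreated liver, 7 to 8 for Dex against Cort, 5 to 7 for liver against muscle, 8 to 9 for liver against WAT and 6 to 8 for muscle against WAT. The replicate block left 0 genes called in the 5 genotype comparisons that allow it (WAT shares 1 number), and 7 for liver against muscle over the 3 mice that gave both tissues. Over all genes, those called for genotype rose from 1 to 62 without a filter and to 24 by DESeq2 in Dex liver, from 4 to 270 by DESeq2 on Cort, and from 0 to 37 by DESeq2 and to 333 without E47KO library 3 in WAT. By DESeq2 they were 6 (edgeR 0) at 1 h, 11 (4) in untreated liver, 93 (2) in muscle, and 16 (1) and 2 (1) for the genotype differences on Cort and Dex against untreated liver. On Cort, genes called for genotype by edgeR also rose to 67 with the animal-number set as a covariate and to 29 with the replicate block. The cause of these changes was not tested. Other alternatives kept the count within 1.5 times (88 of 93, and 127 of 128 with a library left out). Depth limited *Npas2* in untreated liver and *Dbp* at 1 h most, with at most 11 and 7 reads a library.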
